A study of Mus musculus with 8 samples.

Results

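The Cyp3a family, which encodes cytochrome P450 enzymes of subfamily 3A, was followed through liver maturation in 8 whole-liver RNA samples of wild-type FVB mice (FVB/NJ in the methods). The 6 listed genes, of 22059 gene symbols in the files, were taken by symbol from every sample: Cyp3a11, Cyp3a13, Cyp3a16, Cyp3a25, Cyp3a41a and Cyp3a44. All 6 were among the 17081 genes with enough reads to be tested, and the files hold 3 further rows with a Cyp3a name (Cyp3a41b, Cyp3a57 and Cyp3a59). The stages were E18 (day 18 of gestation), P14 and P28 (days 14 and 28 after birth) and adult mice of 3 months, with 2 untreated samples each. The labels give the strain, the tissue and the stage, and they give no sex, litter or sequencing date.

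Cyp3a enzymes sit in the membrane of the endoplasmic reticulum of hepatocytes and enterocytes, where they oxidise steroids, bile acids and a wide range of drugs with electrons passed on by cytochrome P450 reductase. The pregnane X receptor and the constitutive androstane receptor, each paired with a retinoid X receptor, bind xenobiotics and bile acids and switch on transcription of Cyp3a genes, on a ground state set by HNF4A and C/EBP factors. In mouse liver Cyp3a16 is known as a fetal and neonatal form and Cyp3a11 as a main adult form, in parallel with the change from CYP3A7 to CYP3A4 in human liver, while Cyp3a41a and Cyp3a44 are known to be more abundant in adult females than in males.

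In these livers the listed genes did not follow a single exchange of Cyp3a16 for Cyp3a11. At E18 Cyp3a16 had the highest level of the 6 genes per transcript length, and by P14 Cyp3a11 had passed it although Cyp3a16 had itself risen. Cyp3a16 was nearly gone at P28. In adult liver Cyp3a25, and not Cyp3a11, had the highest level per length, as Cyp3a11 fell after P28 and Cyp3a25 had no call. Cyp3a13 reached its highest level in adult liver.

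Of the 9 Cyp3a genes, 8 lie side by side on chromosome 5 in the order Cyp3a57, Cyp3a16, Cyp3a41b, Cyp3a41a, Cyp3a44, Cyp3a11, Cyp3a25 and Cyp3a59, by the RefSeq gene order of GRCm38.p6. Cyp3a13 lies apart from them on the same chromosome. By transcript sequence (GENCODE M21) the cluster held 2 groups. Cyp3a16, Cyp3a41a, Cyp3a44 and Cyp3a11 were 91.6 to 95.0% identical to each other over aligned bases, and Cyp3a25 was 97.0% identical to Cyp3a59 but 74.6% identical to Cyp3a16 and 74.1% to Cyp3a11.

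**Figure D1:**
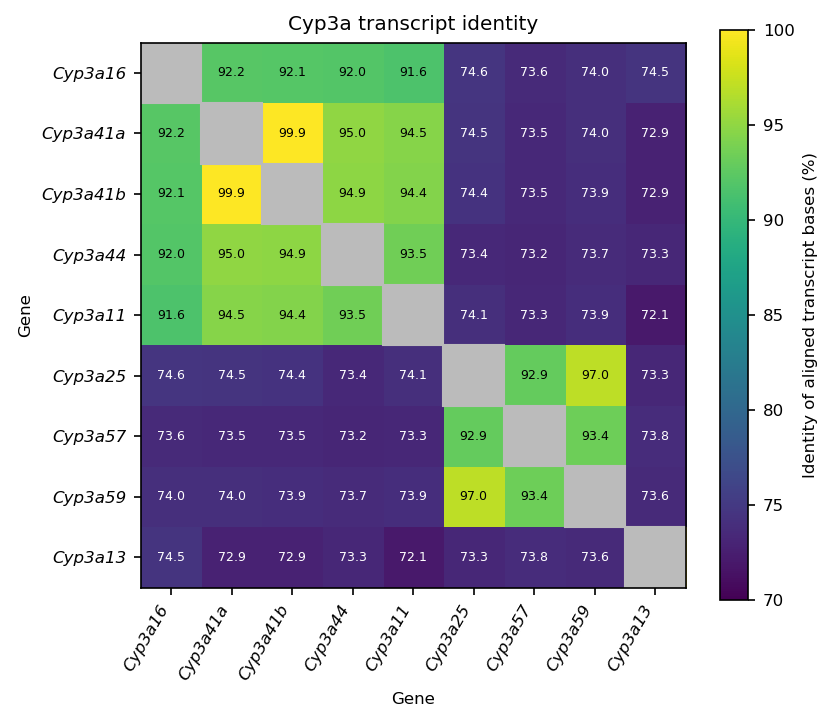
Percent identity of aligned transcript bases for every pair of the 9 Cyp3a genes, with genes on both axes and the colour scale running from 70 to 100%. A block of Cyp3a16, Cyp3a41a, Cyp3a41b, Cyp3a44 and Cyp3a11 and a block of Cyp3a25, Cyp3a57 and Cyp3a59 stand out, and Cyp3a13 is below 75% with every other gene.

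The 200 bases before the transcription start show the same grouping, and 4 of these windows are given here because the values below turn on these genes: the related promoters of Cyp3a11, Cyp3a16 and Cyp3a44, of which Cyp3a16 had a time course unlike the others, and the unlike promoter of Cyp3a25. They run 5′ to 3′ and come from the RefSeq promoter table (GRCm38.p6, all on the minus strand), at chr5:145879855-145880054 for Cyp3a11, chr5:145469724-145469923 for Cyp3a16, chr5:145805875-145806074 for Cyp3a44 and chr5:146009619-146009818 for Cyp3a25. Capitals mark matches, on either strand, to the nuclear receptor half-site AGGTCA, which reads as TGACCT when it lies on the opposite strand, to the HNF4-type element CAAAGTCCA, to the TATA box motif TATAAA and to the string CATATAA. All 4 were chosen after the sequences had been seen.
Cyp3a11: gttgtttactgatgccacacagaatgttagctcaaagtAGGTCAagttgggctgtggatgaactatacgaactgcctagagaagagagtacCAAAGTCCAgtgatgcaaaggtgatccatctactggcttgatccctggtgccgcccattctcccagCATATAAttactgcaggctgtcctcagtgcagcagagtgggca
Cyp3a16: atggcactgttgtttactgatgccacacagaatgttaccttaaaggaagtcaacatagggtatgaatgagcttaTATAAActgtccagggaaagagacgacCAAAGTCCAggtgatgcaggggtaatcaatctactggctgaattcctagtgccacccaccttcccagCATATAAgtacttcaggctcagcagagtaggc
Cyp3a44: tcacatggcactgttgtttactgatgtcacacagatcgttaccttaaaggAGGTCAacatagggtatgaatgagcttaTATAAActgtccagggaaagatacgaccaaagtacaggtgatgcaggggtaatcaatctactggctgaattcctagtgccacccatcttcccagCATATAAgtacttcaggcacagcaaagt
Cyp3a25: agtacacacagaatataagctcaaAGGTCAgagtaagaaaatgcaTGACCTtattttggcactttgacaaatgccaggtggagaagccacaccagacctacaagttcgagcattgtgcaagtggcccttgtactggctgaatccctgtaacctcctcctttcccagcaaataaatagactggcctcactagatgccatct

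The promoter windows of Cyp3a16 and Cyp3a44 were 95.4% identical over aligned bases, those of Cyp3a16 and Cyp3a11 82.5%, and those of Cyp3a25 and Cyp3a11 71.5%. CAAAGTCCA was found in the windows of Cyp3a11, Cyp3a16 and Cyp3a41a, and in 0.318% of 27025 promoters of the same length. CATATAA was found at base -43 of Cyp3a11, base -32 of Cyp3a16 and base -28 of both Cyp3a41a and Cyp3a44, counted back from the start site, and in 1.72% of all promoters. AGGTCA occurred in Cyp3a11, Cyp3a44 and, on both strands, Cyp3a25, against 11.2% of all promoters. TATAAA occurred at base -126 of Cyp3a16 and base -122 of both Cyp3a41a and Cyp3a44, against 10.6% of all promoters. These matches lay farther from the start site than CATATAA. The window of Cyp3a13 held none of the 4 strings. No matches to different strings overlapped. A match is only a string in the genome, and factor binding was not measured here.

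Near-identical family members limit how reads can be given to a gene. Of all 100-base stretches of the Cyp3a41a transcript, 90.8% also occur in another transcript, mostly that of Cyp3a41b, so the reads of Cyp3a41a and Cyp3a41b cannot be told apart with confidence. The share was 6.05% for Cyp3a25, shared with Cyp3a59, and 5.37% for Cyp3a44. It was 0.312% for Cyp3a11, 0.123% for Cyp3a16 and 0.0% for Cyp3a13. The length behind the deposited RPKM of Cyp3a41a, recovered as reads over RPKM, was 4124 bases against 2060 in the annotated transcript. The annotated transcript of Cyp3a41b has 2064 bases. Whether the Cyp3a41a row also holds reads of Cyp3a41b is not known. Its RPKM is lower to that extent only if its reads came from the Cyp3a41a transcript alone.

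Reads assigned to genes numbered 68154675 to 106055723 a sample. Reads were normalised by TMM, the scaling of edgeR, to counts per 1000000 reads (CPM), and its factors set the E18 samples (1.598 and 1.539) apart from the 6 later ones (0.847 to 0.888). A gene was called changed between stages when it passed a false discovery rate of 0.1 (Benjamini-Hochberg) and moved over 3-fold, and adjusted p-values are those of edgeR's quasi-likelihood test over all tested genes. E18 liver still makes blood cells. The summed CPM of 9 erythroid markers was 9007 and 11620 at E18 and 72.88 to 83.0 in the later samples. All 9 markers were called lower at P14 than at E18, as were 15.4% of all tested genes. Summed CPM of 8 pancreatic acinar markers was 235.5 and 509.9 at E18, with 6 of the 7 tested lower at P14, and of 7 tested intestinal markers 5 (Cdx1, Cdx2, Vil1, Lct and Alpi) were lower at P14. The other two, Apoa4 and Fabp2, were higher. The part of these other cells in the rises between E18 and P14 was not tested, and in whole liver fewer hepatocytes and less RNA per hepatocyte cannot be told apart.

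Sex-linked transcripts also differed between samples. Xist, expressed from the inactive X chromosome, was at 773.7 and 83.59 CPM at E18, 0.5454 and 570.2 at P14, and 0.6477 to 0.9753 at P28 and in adult. Ddx3y, on the Y chromosome, was at 0.0 and 27.96 CPM at E18, 54.17 and 5.755 at P14, and 54.62 to 63.32 at P28 and in adult. E18 replicate 2 and P14 replicate 2 thus held both kinds of transcript, and no P28 or adult sample held Xist above 1 CPM. Sex-linked expression thus moved in part with stage, and its part in the Cyp3a values was not tested.

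From E18 to P14 all 6 listed genes rose, against 13.8% of tested genes called higher and 15.4% called lower. The median log2 fold change was 3.88 over the 6 genes and -0.03 over all tested genes. Hepatocyte markers rose in the same interval, with 8 of 8 called higher and a median log2 fold change of 3.24. Of pericentral and periportal hepatocyte markers, 7 of 8 and 5 of 6 were called higher. The rise was thus not particular to the Cyp3a genes. From P14 to P28 only Cyp3a16 changed among the 6, and it fell, against 3.61% called higher and 5.98% called lower. From P28 to adult 3 genes fell (Cyp3a11, Cyp3a41a and Cyp3a44), against 0.767% called higher and 2.24% called lower. Between E18 and adult the result was 3 genes higher (Cyp3a11, Cyp3a13 and Cyp3a25) and 1 lower (Cyp3a16), against 16.8% and 23.8% of tested genes. All 4 comparisons come from 1 fit of the 8 samples and share its estimate of the spread. Comparisons with a stage in common also share the samples of that stage. With library size alone in place of TMM the median change of all tested genes from E18 to P14 moved to -0.9, with 7.41% called higher and 29.8% lower, and from E18 to adult to -0.95, with 9.68% higher and 36.1% lower. The 6 and 4 calls of the listed genes stood under that scaling, and 5 of the 8 hepatocyte markers were then called higher from E18 to P14.

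**Figure D2:**
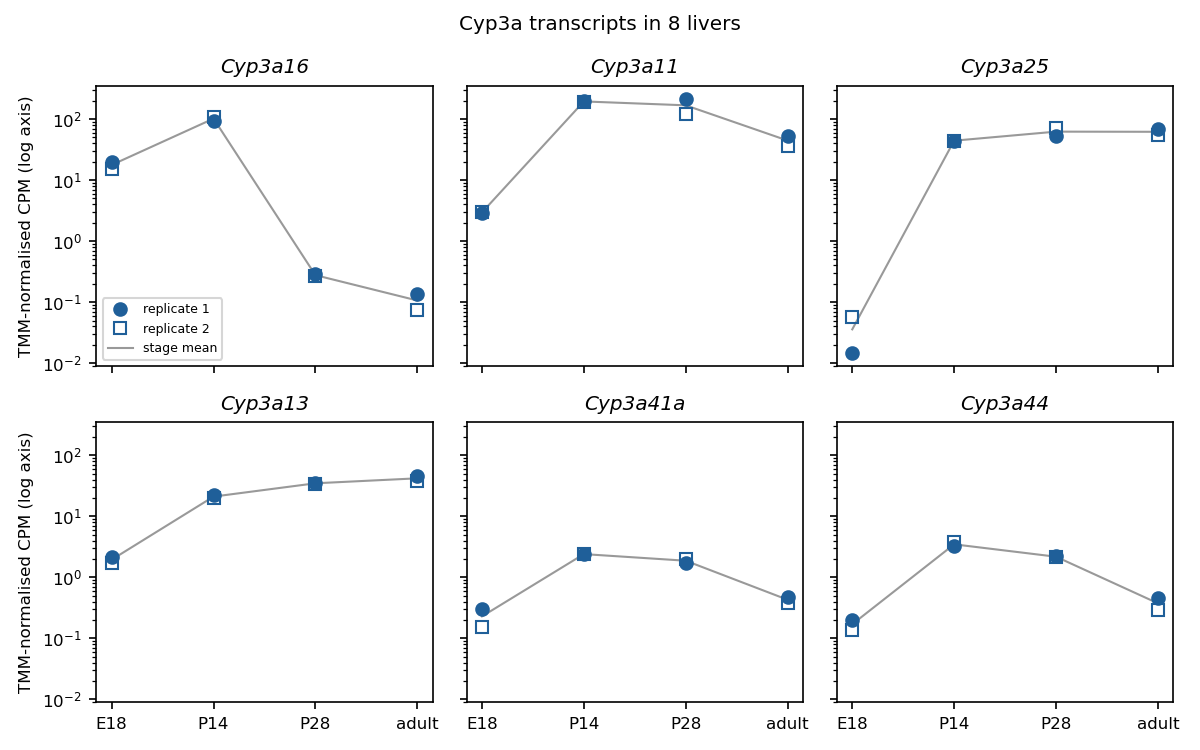
TMM-normalised CPM on a log axis for the 6 listed genes at each stage, with filled circles for replicate 1, open squares for replicate 2 and a grey line through the stage means. Cyp3a16 drops below 1 CPM after P14, Cyp3a25 starts below 0.1 CPM and stays near 60 CPM from P28, and Cyp3a11, Cyp3a41a and Cyp3a44 rise and then fall.

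Cyp3a16, the perinatal form, gave 2788 and 1876 reads in E18 livers, 8649 and 9720 in P14 livers, 23 and 19 in P28 livers, and 8 and 5 in adult livers. Its highest samples were those of P14, both above both E18 samples, and the P28 and adult samples did not overlap. In CPM it was 17.71 ± 3.36 (SD, n = 2) at E18 and 101.7 ± 10.4 at P14, a rise of 2.52 ± 0.15 (SE) on the log2 scale (adjusted p = 5.6e-07). Between P14 and P28 it fell by 8.51 ± 0.22 on the log2 scale (adjusted p = 1.7e-07), which is 366-fold in the pooled reads with a 95% counting interval of 271 to 508. This interval, like those below, covers counting error only. A further difference of -1.4 ± 0.42 from P28 to adult rested on 42 against 13 reads and did not reach 3-fold (adjusted p = 0.06). From E18 to adult it fell by 7.39 ± 0.26 (adjusted p = 1.4e-08). Its time course was unlike that of every other listed gene, with a root mean square difference of 4.04 to 7.04 in centred log2 CPM over the 8 samples, whereas all pairs without Cyp3a16 or Cyp3a25 lay between 0.38 and 1.57.

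Cyp3a11, a main drug-metabolising form of adult mouse liver, gave 402 and 368 reads in E18 livers, 17886 and 17265 in P14 livers, 17214 and 8624 in P28 livers, and 3080 and 2383 in adult livers. The P14 and P28 samples were high, the E18 samples low and the adult samples between them. From E18 to P14 its CPM went from 2.952 ± 0.0783 to 194.4 ± 1.0, a rise of 6.04 ± 0.32 on the log2 scale (adjusted p = 2.6e-07). P14 and P28 were not told apart (-0.21 ± 0.25, adjusted p = 0.52), and the P28 samples, at 215.2 and 120.6 CPM, lay on either side of both P14 samples. From P28 to adult Cyp3a11 fell by 1.92 ± 0.26 (adjusted p = 0.0021) to 44.42 ± 12.1 CPM. Without P28 replicate 1 that difference was -1.44 (adjusted p = 0.0041), which is under 3-fold. Adult liver remained above E18 by 3.91 ± 0.29 (adjusted p = 1.6e-06).

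The spread of Cyp3a11 at P28 went along with other genes. Its duplicates differed 1.78-fold, and 5.56% of tested genes differed as much between these samples. P28 replicate 1, the higher one, also had 290.2 CPM of Alas1, which encodes the first enzyme of heme synthesis, against 89.33 in replicate 2. Dbp, a clock-controlled transcription factor, went the other way, with 42.09 against 140.6 CPM. Summed CPM of 11 genes known to be higher in female liver was 255.2 in replicate 1 and 59.67 in replicate 2. Most of each sum was A1bg, at 195.3 and 44.36 CPM. Xist was at 0.9753 and 0.6854 CPM in these samples. The part of these differences in the Cyp3a11 values was not tested.

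Cyp3a25, expressed in liver and intestine, gave 2 and 7 reads in E18 livers, 4069 and 3927 in P14 livers, 4264 and 5080 in P28 livers, and 3952 and 3700 in adult livers. It was close to absent at E18, where 1 sample was below the 3 reads taken as the smallest detectable count, and high in every later sample. The 9 reads of E18 against 7996 of P14 gave a 1280-fold higher normalised level (95% counting interval 676 to 2810), and the fitted log2 change of 10.27 ± 0.32 (adjusted p = 1.6e-08) depends on how so few reads are treated. After P14 it moved little, by 0.49 ± 0.17 to P28 (adjusted p = 0.042) and -0.01 ± 0.17 to adult (adjusted p = 0.99), neither over 3-fold. Stage means were 44.22 CPM at P14, 62.19 at P28 and 61.83 in adult.

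Cyp3a13, the form outside the cluster, gave 303 and 209 reads in E18 livers, 2053 and 1752 in P14 livers, 2837 and 2428 in P28 livers, and 2696 and 2485 in adult livers. In CPM both samples of each stage lay above both samples of the stage before. It rose by 3.43 ± 0.16 from E18 to P14 on the log2 scale (adjusted p = 1.3e-07). The steps of 0.72 ± 0.14 to P28 (adjusted p = 0.0031) and 0.27 ± 0.14 to adult (adjusted p = 0.24) were not over 3-fold. From E18 to adult the rise was 4.42 ± 0.17 (adjusted p = 2.1e-08).

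Cyp3a41a and Cyp3a44, the forms known for a female bias, had low levels throughout and changed alike. Cyp3a41a gave 42 and 19 reads in E18 livers, 223 and 211 in P14 livers, 138 and 144 in P28 livers, and 28 and 25 in adult livers. Cyp3a44 gave 28 and 17 reads in E18 livers, 295 and 332 in P14 livers, 179 and 151 in P28 livers, and 27 and 19 in adult livers. For both genes P14 and P28 were high and E18 and adult low. Cyp3a41a rose by 3.37 ± 0.3 from E18 to P14 (adjusted p = 8.2e-06) and fell by 2.13 ± 0.3 from P28 to adult (adjusted p = 0.0027). Cyp3a44 rose by 4.33 ± 0.28 (adjusted p = 8.9e-07) and fell by 2.54 ± 0.27 (adjusted p = 0.00064). Neither changed over 3-fold between P14 and P28 (-0.36 ± 0.26 and -0.67 ± 0.22) or between E18 and adult (0.88 ± 0.34 and 1.11 ± 0.33), and with library size alone the latter values became 0.03 and 0.26.

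At P14 the sample with 0.5454 CPM of Xist held 223 reads of Cyp3a41a and 295 of Cyp3a44, and the sample with 570.2 CPM of Xist held 211 and 332. The P28 and adult samples were alike in Xist and Ddx3y. Cyp3a41a and Cyp3a44 fell between these stages. Summed over 11 other genes known to be higher in female liver, CPM was 400.3 and 367.8 at P14 and 6.119 and 3.705 in adult, with 7 of the 11 called lower and 1 (Sult1e1) higher from P28 to adult, against 2.24% and 0.767% of all tested genes. Summed over 14 genes known to be higher in male liver it went from 371.4 and 357.8 at P14 to 5477 and 6393 in adult. The methods describe the 3-month adults as male and give no sex for the other stages. The part of sex in the fall of Cyp3a41a and Cyp3a44 was not tested.

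The remaining Cyp3a rows were low. Cyp3a41b ran beside Cyp3a41a, with 1.16 to 1.62 reads of Cyp3a41a for each read of Cyp3a41b, and was called higher from E18 to P14 (3.54 ± 0.35, adjusted p = 1.7e-05) and lower from P28 to adult (-2.23 ± 0.35, adjusted p = 0.0043). Cyp3a59, the near copy of Cyp3a25, had 3 reads at E18 over both samples and 443 at P14, a ratio of 213 with a 95% counting interval of 72.5 to 1040. Cyp3a57 stayed at 15 to 50 reads in every sample and rose by 2.02 ± 0.3 from E18 to P14 (adjusted p = 0.00027). Both were therefore higher at P14, as were the listed genes.

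**Figure D3:**
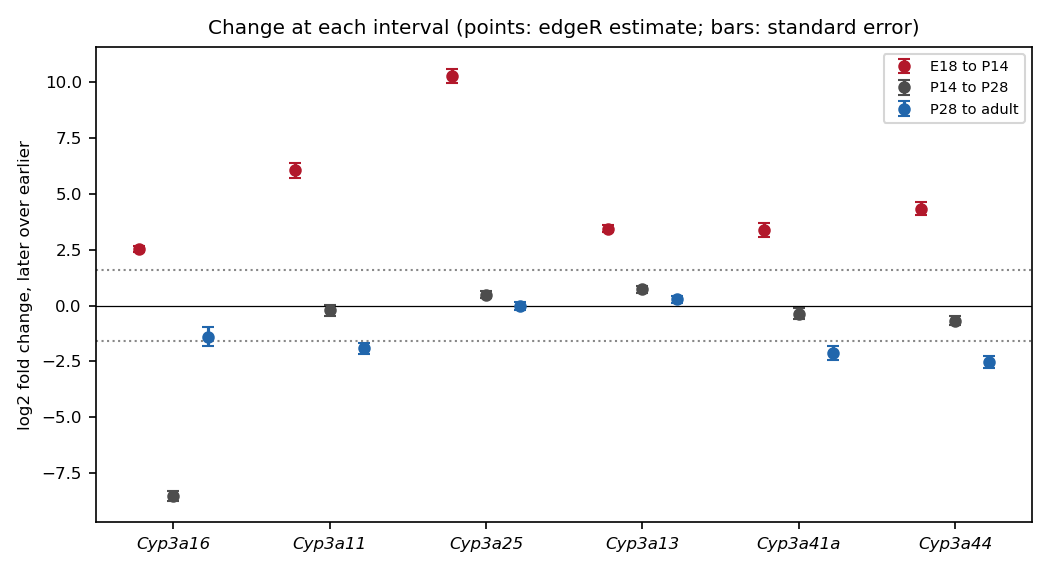
Log2 fold change of each listed gene over the 3 intervals, with bars for the standard error and dotted lines at 3-fold. All 6 genes lie above the upper line from E18 to P14, only Cyp3a16 lies below the lower line from P14 to P28, and Cyp3a11, Cyp3a41a and Cyp3a44 lie below it from P28 to adult.

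Levels of different genes were compared per length, by the deposited RPKM. At E18 Cyp3a16 was at 17.2 and 12.8 RPKM, above Cyp3a11 at 2.09 and 2.12. At P14 Cyp3a11 led with 77.3 and 75.9 RPKM, followed by Cyp3a16 at 44.4 and 50.7 and Cyp3a25 at 18.0 and 17.7. At P28 Cyp3a11 (81.9 and 46.8 RPKM) was followed by Cyp3a25 (20.8 and 28.3) and Cyp3a13 (9.38 and 9.16). The adult order was Cyp3a25 at 26.7 and 22.6 RPKM, Cyp3a11 at 20.3 and 14.2, and Cyp3a13 at 12.4 and 10.3, with Cyp3a44, Cyp3a41a and Cyp3a16 all below 0.2. Each gene in these orders lay above the next in both samples, apart from Cyp3a44 and Cyp3a41a at E18. At the annotated length of 2060 bases, a calculation added after the data had been seen, Cyp3a41a would be at 0.184 and 0.148 RPKM in adult liver, where Cyp3a44 was at 0.186 and 0.118, so these genes then overlapped in adult as well as at E18. With 2 samples a stage no exact test of such a difference can go below p = 0.33.

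As shares of the summed RPKM of the 6 genes, Cyp3a16 made up 81.76% ± 2.13 (SD, n = 2) in E18 livers, 31.74% ± 2.4 in P14 livers, 0.1287% ± 0.0201 in P28 livers and 0.08978% ± 0.0213 in adult livers. The share of Cyp3a11 was 11.69% ± 2.23, 51.2% ± 1.63, 63.45% ± 12.4 and 32.01% ± 2.83 at the same stages. Cyp3a11 thus held the largest share at P14 and P28 only. In adult liver Cyp3a25 held 46.25% ± 2.14 and Cyp3a13 21.21% ± 0.749. The log2 ratio of Cyp3a16 to Cyp3a11 was 3.04 and 2.6 in E18 livers, -0.8 and -0.58 in P14 livers, -9.3 and -8.58 in P28 livers, and -8.34 and -8.65 in adult livers, so it had changed sign by P14, and the P28 and adult samples overlapped. Summed over the 6 genes, expression was 23.04 ± 3.74 CPM in E18 livers, 367.2 ± 7.53 in P14 livers, 269.2 ± 55.3 in P28 livers and 149.0 ± 27.2 in adult livers.

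**Figure D4:**
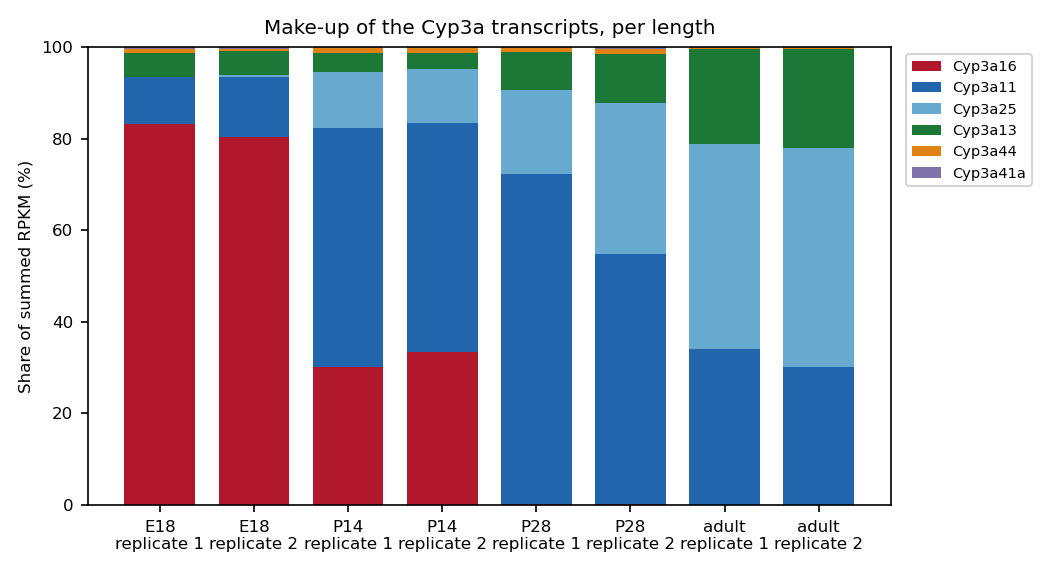
Share of each listed gene in the summed RPKM of the 6 genes, in percent, stacked for each of the 8 samples. Cyp3a16 fills 81.76% on average at E18 and is not visible from P28 on, while Cyp3a25 and Cyp3a13 widen from P14 to adult, where Cyp3a25 holds 46.25%.

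Receptors and transcription factors known to act on Cyp3a genes or on hepatocyte maturation rose mostly in the same interval as the family. Of 25 such genes tested, 16 were higher and 1 lower from E18 to P14 (median log2 fold change 1.72, against -0.03 over all tested genes), 1 was higher from P14 to P28, and 0 were called from P28 to adult by edgeR or DESeq2, where 10 had a positive and 4 a negative change at an unadjusted p below 0.05. Over all tested genes 13.8% were called higher and 15.4% lower from E18 to P14. These shares were 3.61% and 5.98% from P14 to P28, and 0.767% and 2.24% from P28 to adult. The counts of 1 and 0 among 25 genes were thus near the shares of all genes. No share of all tested genes was taken at the unadjusted threshold. With library size alone 9 of the 25 were higher in that interval, against 7.41% of all tested genes. Nr1i2, which encodes the pregnane X receptor, was at 16.23 and 16.89 CPM at E18 and 114.1 and 112.2 at P14, and rose by 2.77 ± 0.13 on the log2 scale (adjusted p = 1.7e-07). Nr1i3, which encodes the constitutive androstane receptor, rose by 5.01 ± 0.16 (adjusted p = 1.7e-08), and their partner Rxra by 2.73 ± 0.11 (adjusted p = 4.9e-08). Hnf4a rose by 1.89 ± 0.15 and Cebpa by 2.56 ± 0.13. The nuclear receptor gene Vdr was the one that fell (-2.28 ± 0.52, adjusted p = 0.0034). Nr1i2, Nr1i3 and Rxra had no call from P28 to adult, the interval in which Cyp3a11 fell, with log2 changes of 0.23 ± 0.13, -0.09 ± 0.13 and 0.17 ± 0.1.

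**Figure D5:**
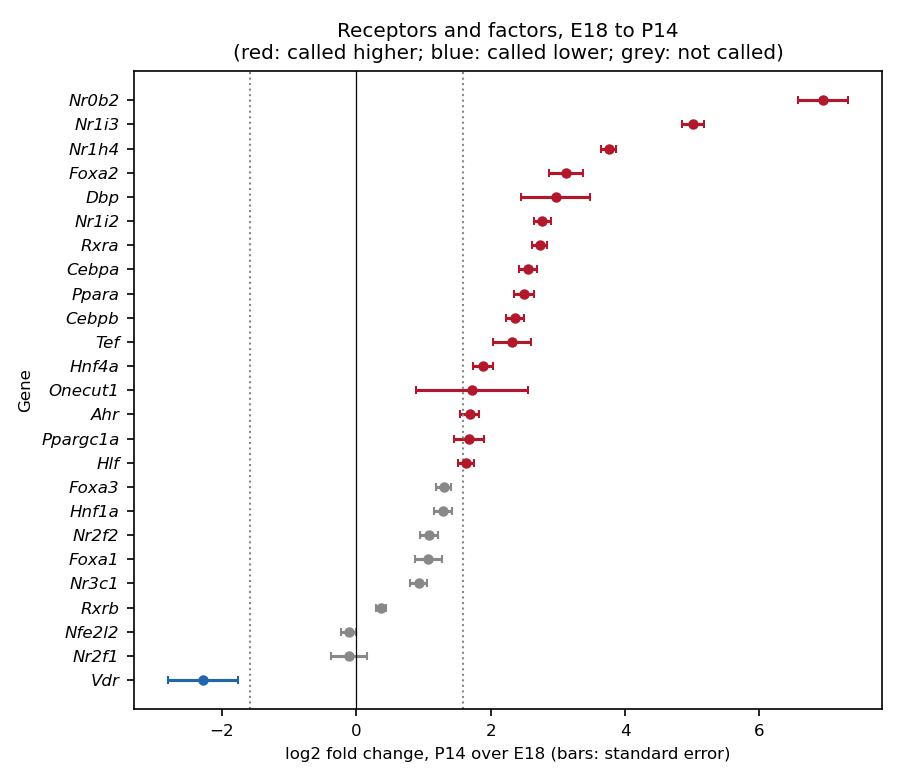
Log2 fold change from E18 to P14 of the 25 receptors and transcription factors, with bars for the standard error, dotted lines at 3-fold, and colours for genes called higher (red), lower (blue) or neither (grey). Nr0b2 and Nr1i3 lie farthest right, at 6.95 and 5.01, and Vdr is the single gene called lower.

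Of 13 genes for electron donors and heme supply, 4 rose from E18 to P14 (against 13.8% of all tested genes), 6 fell (against 15.4%) and 3 had no call. Those that rose were Por, the P450 reductase (2.97 ± 0.18, adjusted p = 6.1e-07), Alas1 (4.03 ± 0.5, adjusted p = 7.3e-05), Pgrmc1, a heme-binding partner of P450 enzymes (2.3 ± 0.11), and Cyb5b, an outer mitochondrial membrane cytochrome b5 (1.6 ± 0.11). Those that fell, Fech and Urod among them, encode later steps of heme synthesis, which red cell precursors also use, and they fell beside the 9 erythroid markers. The part of red cell precursors in their fall was not tested. With library size alone 2 were higher and 7 lower. From P28 to adult Alas1 rose by 2.23 ± 0.46 (adjusted p = 0.014) while Cyp3a11 fell.

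Most of the other perinatal liver genes listed fell in the interval in which Cyp3a16 did, but without its rise at P14. Of 8 such genes, 0 were higher from E18 to P14 by edgeR, by DESeq2 or at an unadjusted p below 0.05. By edgeR 5 were lower in that interval, against 15.4% of all tested genes. From P14 to P28, 6 were lower by edgeR, against 5.98%, and 5 by DESeq2. Igf2bp1 (-0.57 ± 0.45) and Igf2bp3 (-0.92 ± 0.14) had no call by edgeR. Afp, the fetal serum protein, was lower in both intervals, by log2 changes of -7.79 ± 0.34 and -4.33 ± 0.3. H19, an imprinted RNA of fetal liver, was closer to Cyp3a16. It had no call from E18 to P14 (0.51 ± 0.35) and fell by 12.03 ± 0.56 from P14 to P28 (adjusted p = 1.6e-06). Its P14 samples differed, at 8757 and 18960 CPM, against 9747 and 9716 at E18. Igf2 likewise had no call from E18 to P14 (-0.94 ± 0.5) and fell by 11.22 ± 0.8 from P14 to P28 (adjusted p = 1.4e-05). The P14 samples of Igf2 also differed, at 582.3 and 2541 CPM, both below the 2977 and 3037 of E18. Zhx2 and Zbtb20, which repress Afp after birth, rose by 2.29 ± 0.14 and 2.6 ± 0.27 from E18 to P14. Zbtb20 rose again to P28 (1.8 ± 0.23, adjusted p = 0.00031). Zfhx3, the other listed repressor, had no call in either interval, with means of 5.425 CPM at E18, 6.963 at P14 and 13.22 at P28.

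On either side of the cluster, 0 of the 5 tested neighbours (Zkscan14, Zkscan5, Zfp655, Rnf6 and Cdk8) were called in any of the 4 comparisons by edgeR or DESeq2. Of all tested genes 16.8% were called higher and 23.8% lower from E18 to adult, and 13.8% and 15.4% from E18 to P14. The shares were 3.61% and 5.98% from P14 to P28, and 0.767% and 2.24% from P28 to adult. With 5 genes, 0 calls do not set the neighbours apart from other genes. At an unadjusted edgeR p below 0.05, 4 had a positive and 1 a negative change from E18 to adult, and 1 and 2 from E18 to P14. No share of all tested genes was taken at that threshold. Beside Cyp3a13, Azgp1, which encodes a secreted zinc-binding glycoprotein, rose by 13.43 ± 0.22 from E18 to P14 (adjusted p = 3e-09), from 7 and 11 reads to 69178 and 70944, and Gjc3, a gap junction gene, was also called higher. The other 3 tested neighbours of Cyp3a13 had no call.

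Over all tested genes outside the list, the time course nearest to Cyp3a16 was that of Hsd3b1, a steroid dehydrogenase gene, at a root mean square difference of 1.18 in centred log2 CPM over the 8 samples. The nearest to Cyp3a11 was Slc16a5 (0.35), to Cyp3a25 Agxt2l1 (0.33), to Cyp3a13 Cidec (0.12), to Cyp3a44 Wfdc16 (0.3) and to Cyp3a41a its near copy Cyp3a41b (0.12). Cyp3a16 was therefore the listed gene with the least close match. Its own range over the samples was 10.13 on this scale, that of Cyp3a25 10.92 and that of Cyp3a13 4.74. Promoters and time courses did not rank alike within the family. Cyp3a16 and Cyp3a44, with promoter windows 95.4% identical, differed by 4.04 in time course, and Cyp3a41a and Cyp3a44, with windows 94.0% identical, by 0.38.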

How the data were processed

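Per the paper's methods, poly(A)-selected liver RNA was sequenced as 100-base read pairs and aligned to the mouse genome (mm9 in the submitters' processing notes). The aligner behind the counts is not given in the sources used here, nor is the treatment of reads that match several genes. RNA isolation was with Trizol per the labels and with an RNeasy kit per the methods. The authors deposited, for each gene, raw read counts and RPKM (the count scaled to a transcript length of 1 kilobase and 1000000 mapped reads).

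The counts were analysed with edgeR (version 4.0.16). Genes were kept by filterByExpr and scaled by TMM, all 8 samples were fitted with 1 coefficient a stage (glmQLFit), and stages were compared with glmQLFTest. The standard error was the log2 fold change over the square root of F. Duplicates are separate samples, which differed by more than sampling noise (chi-square per degree of freedom 39.91 to 79.19). Profile distances used log2 CPM centred on each gene's mean with a prior count of 2. Fold intervals of genes with few reads were exact binomial intervals on pooled reads, from scipy (version 1.17.1). Transcript and promoter pairs were aligned globally with Biopython.

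The family members, gene lists and promoter strings were chosen with earlier results of these data known. Named genes were the listed and other Cyp3a rows, the 3 nearest profiles of each (the nearest is printed), and members of the lists. Alternatives were no filter, a minimum of 10 counts in each sample, median-ratio scaling, library size alone, DESeq2 (version 1.42.0), limma (version 3.58.1) on log2(RPKM + 0.1) or log2(RPKM + 1), only the 2 stages compared, a replicate block, a false discovery rate of 0.05, a 2-fold threshold and each sample left out. The fits were tested on simulated data. R (version 4.3.3) and Python (version 3.11.15) were used.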

Additional observations from a re-analysis of the deposited data

How the results depend on the processing

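The counts of called Cyp3a genes (4 from E18 to adult, 6 from E18 to P14, 1 from P14 to P28 and 3 from P28 to adult) were within 1.5 times of the values above under each alternative, with 3 exceptions. With a minimum of 10 counts in each sample they were 2 from E18 to adult and 0 from P14 to P28, since Cyp3a16 and Cyp3a25 are then not tested, and with limma on log2(RPKM + 1) 1 gene was called from P28 to adult. Leaving out a sample gave 2 to 4 calls from P28 to adult and changed no other count. Of 400 single log2 fold changes under alternatives, 387 kept direction and call. For Cyp3a11 from P14 to P28, leaving out a sample gave -0.69 to 0.14, the positive value without P28 replicate 2. For Cyp3a25 from P28 to adult it gave -0.2 to 0.21, and library size alone and both limma fits gave 0.02. For Cyp3a16 from P28 to adult, -1.86 without adult replicate 1 was over 3-fold (adjusted p = 0.091, edgeR). The log2 ratio of Cyp3a16 to Cyp3a11 was -0.94 at P14 and -8.74 in adult from reads without length, and -8.1 at P28 and -6.85 in adult after adding 0.1 to each RPKM. The shift after adding 0.1 follows from Cyp3a16 RPKM near or below 0.1. For other values the cause was not tested. The replicate numbers did not pair the samples (mean correlation of deviations -0.094 over 6 stage pairs, range -0.414 to 0.161), and with a replicate block the counts were again 4, 6, 1 and 3. Counting limits Cyp3a25 and Cyp3a59 at E18 and Cyp3a16 in adult.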
